A study of Arabidopsis thaliana with 6 samples.

Results

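The genes described here are a set of low-oxygen response genes outside fermentation and oxygen sensing: the transcription factor genes *LBD41* (AT3G02550) and *HRA1* (AT3G10040), the desaturase gene *FTM1* (AT1G43800), the methionine gamma-lyase gene *MGL* (AT1G64660), and the hypoxia-induced genes AT4G33560, AT4G24110, AT4G27450, AT1G19530, AT3G27220 and AT5G10040. They were selected on their read counts after 4 h against 0 h of darkness, in these same libraries, so their differences between these groups, and counts of how many passed a threshold, are given as a description and without p-values. Of the 10 genes, 9 were measured among 11167 genes, and AT5G10040 was not analysed here. Genes entered the fit with 5 reads or more in 1 library or more, and all 9 reached that level in a 0 h library, so none entered only through the group in which it was high.

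The libraries came from whole seedlings, 2 weeks old, of the Arabidopsis thaliana *flu* 1-1 mutant in the Col-0 ecotype. This mutant lacks the brake on chlorophyll precursor synthesis and accumulates protochlorophyllide, a photosensitizer that yields singlet oxygen, when kept in darkness. After equilibration in water, seedlings were left in water without light for 0 h (3 libraries) or 4 h (3 libraries) and then received light at 30 µE for 30 min. That the 0 h seedlings also received this light rests on the wording of the protocol, and a treatment field words the hours as exposure to light. Growth light was continuous according to the labels and a long-day cycle according to the paper's methods, and a list in the paper assigns this series to a cycloheximide experiment. The labels, which name the *flu* mutant throughout, were followed. Both groups carried the mutation and both stood in water, so only the length of darkness set them apart by label. Darkness itself, singlet oxygen from the protochlorophyllide accumulated in it, time in water and time of day cannot be told apart. No wild type and no measurement of oxygen were part of these libraries. Nothing in the labels ties the replicates to separate cultures, so errors and p-values reflect variation among these samples that may be technical. For its other assays the study describes each biological replicate as a pool of seedlings.

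In plants, low oxygen is sensed through the group VII ethylene response factors, such as RAP2.12. Plant cysteine oxidases use oxygen to mark these factors for destruction, and when oxygen runs short the factors persist and switch on a core set of genes that is shared by roots and shoots. The best known members of that set code for fermentation enzymes. HRA1, a trihelix factor, is itself induced by RAP2.12 and holds that factor back, whereas LBD41 is a LOB domain factor that is widely used as a marker of the response. FTM1, also called SAD6, belongs to the enzymes that desaturate stearoyl groups on acyl carrier protein, a reaction that consumes oxygen. MGL degrades methionine in the cytosol. For the remaining genes RefSeq gives product names only, namely a wound-responsive family protein (AT4G33560), NADP-specific glutamate dehydrogenase (AT4G24110), an aluminum induced protein with YGL and LRDR motifs (AT4G27450), DNA polymerase epsilon catalytic subunit A (AT1G19530) and a kelch repeat protein (AT3G27220). These names were not checked here and are not taken as functions. The transcripts of AT4G24110 and AT1G19530 are only 992 and 928 bases long.

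The regions before the starts of these genes are shown first because the genes were higher together, and because promoters of low-oxygen genes are known for short elements. The GT motif AAACCA belongs to the anaerobic response element of the alcohol dehydrogenase gene *ADH1*. A loose spelling of the hypoxia-responsive promoter element, AACCA and, after any 3 bases, GC, was searched as well, and overlaps the GT motif wherever an A precedes it. The G-box CACGTG is an element of light, abscisate and stress promoters. All motifs were searched on both strands, and capitals mark matches to these motifs. Sequences are from the RefSeq TAIR10.1 assembly and run 5′ to 3′ towards the gene. The farther AT4G24110 stretch (chr4:12521554-12521613, minus strand) holds the only match to the loose element among the 8 genes searched, which are the measured genes other than *LBD41*. The nearer AT4G24110 region (chr4:12520899-12521148, minus strand) and the *FTM1* region (chr1:16577271-16577520, plus strand) are the 250 bases directly before the 2 genes with the highest 4 h means among the transcripts that were at least 8-fold higher. The *MGL* stretch (chr1:24028725-24028784, plus strand) surrounds its G-box.
AT4G24110 farther stretch: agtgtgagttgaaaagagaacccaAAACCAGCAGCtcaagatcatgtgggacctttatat
AT4G24110 nearer region: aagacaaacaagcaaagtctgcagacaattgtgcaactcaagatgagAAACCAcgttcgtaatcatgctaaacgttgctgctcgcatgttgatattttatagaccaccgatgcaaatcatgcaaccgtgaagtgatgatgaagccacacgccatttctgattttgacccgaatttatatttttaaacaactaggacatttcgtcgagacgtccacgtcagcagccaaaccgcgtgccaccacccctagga
FTM1: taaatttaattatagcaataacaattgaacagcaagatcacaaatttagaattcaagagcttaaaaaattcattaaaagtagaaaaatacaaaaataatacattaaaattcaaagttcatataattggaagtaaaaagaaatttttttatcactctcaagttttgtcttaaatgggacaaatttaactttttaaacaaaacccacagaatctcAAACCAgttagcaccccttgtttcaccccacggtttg
MGL: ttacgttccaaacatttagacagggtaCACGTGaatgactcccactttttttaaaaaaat

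Within 250 bases before the start, a GT motif was present in 4 of the 8 genes (AT4G33560, AT4G24110, *FTM1* and AT4G27450) and in 27.2% of 10374 tested protein-coding genes. A G-box was present in 2 (AT3G27220 and *MGL*), against 7.6% of the tested genes. No gene carried both within this window, so that each held 1 of the 2 motifs except for *HRA1* and AT1G19530, which held neither. The loose element was in 0 of the 8 and in 1.9% of the tested genes at this length. Within 1000 bases it was found in AT4G24110 at 690 bases before the start, 1 of 8 against 8.3% of the tested genes. At 1000 bases the GT motif was in 6 of the 8 genes and in 71.8% of the tested genes, and the G-box in 4 (AT4G33560, AT1G19530, AT3G27220 and *MGL*) against 16.7%. The GC motif GCCCC (1 of 8 against 17.4% at 1000 bases), the GCC box GCCGCC (1 against 9.0%) and the W-box cores TTGACC (2 against 35.0%) and TTGACT (3 against 50.5%) were searched as well. These are matches of letters, counted on genes that were already chosen, and they do not show binding. The regions of AT4G33560 and AT3G27220 are not shown because they reach into a neighbouring gene.

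**Figure D1:**
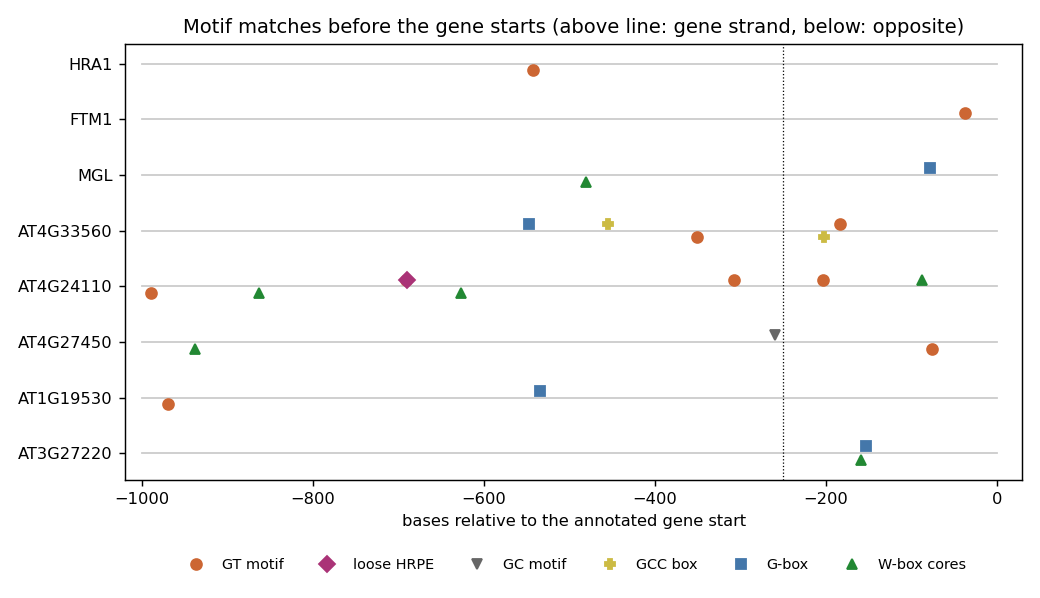
Positions of motif matches in the 1000 bases before the annotated start of 8 of the measured genes, in bases relative to the start, with matches on the gene's strand above each line and on the opposite strand below it; the dotted line stands at 250 bases. The loose hypoxia element appears at 690 bases in AT4G24110, where its symbol covers a GT motif that overlaps it.

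The measured genes lie on chromosomes 1, 3 and 4 (TAIR10.1), with a median of 3 exons against 5 over the tested protein-coding genes and a median transcript length of 1490 against 1777 bases. *HRA1*, AT4G33560 and AT4G24110 have a single exon (3 of 9, against 14.8% of the tested genes). Of the measured genes, 2 share bases at their 3′ end with a gene on the opposite strand. AT4G27450 (chromosome 4, 13727370 to 13729002, minus strand) overlaps *PORB*, a protochlorophyllide oxidoreductase gene, over 71 bases, and *MGL* (chromosome 1, 24028830 to 24030780, plus strand) overlaps *BDG1* over 38 bases. Libraries were made from 3′ ends, and whether counting used the strand is not given in the sources used here, so reads in the shared bases cannot be assigned with certainty. *PORB* itself fell, from a mean of 691.9 CPM (read counts per library scaled by TMM to a common total) to one of 263.4 CPM after the longer darkness (log2 -1.40, SE 0.15, edgeR adjusted p = 1.2e-07).

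The 6 libraries held between 1012425 and 2185464 reads assigned to genes, and 3 reads corresponded to between 1.37 and 2.96 CPM, a floor that covers counting error only. Of 10622 genes tested, edgeR called 889 higher and 869 lower after 4 h at an adjusted p under 0.05. Leaf and root marker genes were both present, with 10 of 10 leaf and 8 of 10 root markers tested and no more than 1 tested root marker at 0 reads in a library. Replicate 3 of the 4 h group stood apart in many of the results that follow, and values with and without it are given.

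Summed over the 9 genes, the level lay between 228.7 and 336.5 CPM in the 0 h libraries and between 845.4 and 1353 CPM in the 4 h libraries. All 9 genes had a positive fitted change, by between log2 1.23 and log2 4.21 with a median of 2.24, where the median over all genes tested was -0.06. The fit called all 9 higher, against a background of 8.37% of the tested genes called in that direction. All 9 were at least 2-fold higher (background 5.1%), and in 7 of the 9 every 4 h library lay above every 0 h library, against 15.3% of the tested genes. Because this contrast chose the genes, nothing is read from these counts. In whole seedlings, more RNA per cell and more cells that express a gene cannot be told apart.

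**Figure D2:**
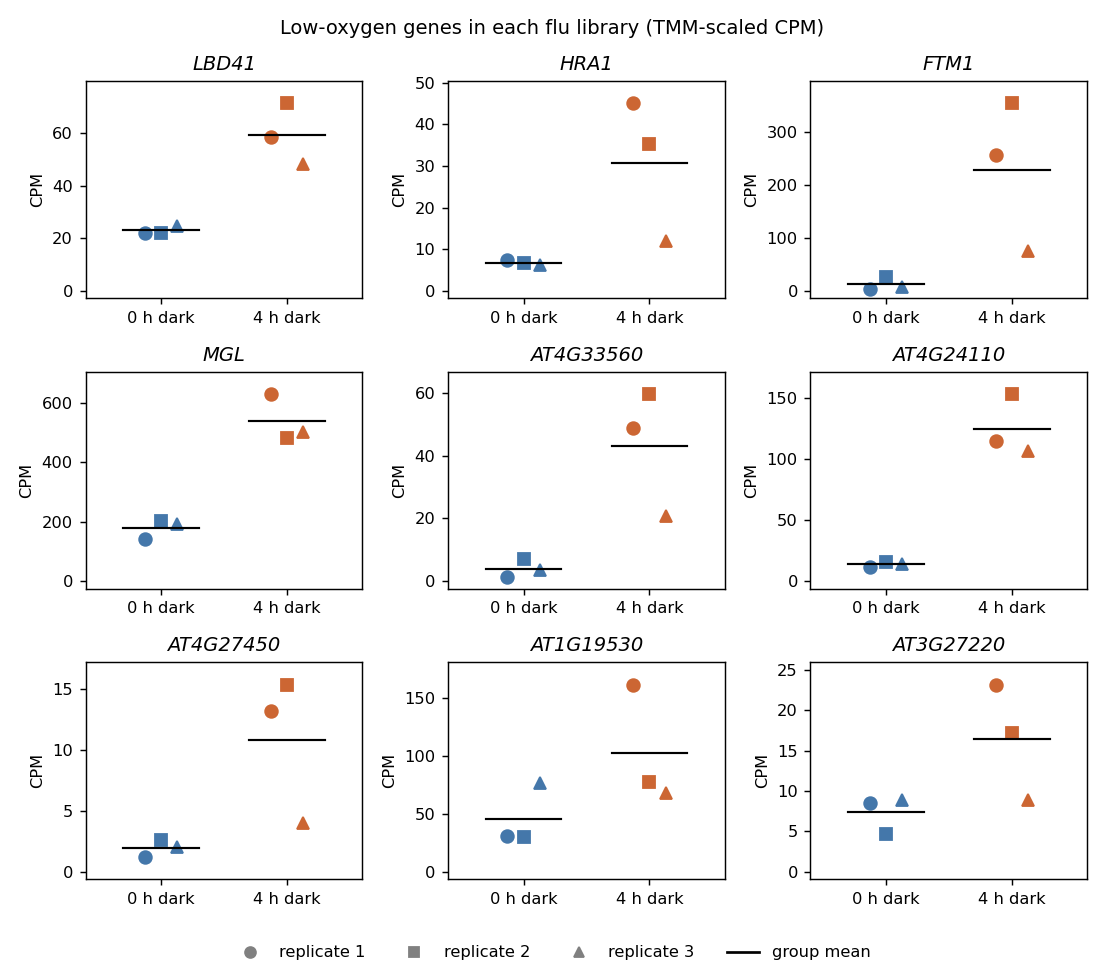
TMM-scaled CPM of the 9 measured genes in each library, with 0 h of darkness on the left and 4 h on the right of each panel, 1 symbol per library and a line at the group mean; each panel has its own axis. The groups overlap only in AT1G19530 and AT3G27220, and the triangle of 4 h replicate 3 is the lowest 4 h point in all genes except MGL.

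Both transcription factor genes were higher after 4 h, with different steadiness. *LBD41* (chromosome 3, 536500 to 538126, minus strand) stood at 22.0, 22.1 and 24.8 CPM after 0 h, and after 4 h at 58.7, 71.3 and 48.5 CPM. The 0 h values differed by no more than 1.13-fold from each other, and every 4 h value was well above them, at a fitted 2.60-fold difference (log2 1.38, SE 0.22, n = 3 per group). *HRA1* (chromosome 3, 3096345 to 3098417, minus strand) stood at 7.34, 6.67 and 6.19 CPM after 0 h, from 12, 13 and 9 reads. After 4 h it was measured at 45.1, 35.2 and 11.9 CPM. The groups did not overlap, but replicate 3 lay only 1.62-fold above the highest 0 h library. The fitted difference was 4.72-fold (log2 2.24, SE 0.38). *HRA1* is the gene of this set whose product restrains the response that induces it.

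*FTM1* (chromosome 1, 16577521 to 16579722, plus strand) showed the largest difference and the largest spread. Its 4, 50 and 10 reads in the 0 h libraries gave 2.45, 25.6 and 6.88 CPM, a range of 10.5-fold among replicates. After 4 h, 563, 392 and 75 reads gave 256.2, 354.0 and 74.2 CPM. The groups did not overlap, with the lowest 4 h value 2.89-fold above the highest 0 h value. The fitted difference was 18.5-fold with a 95% interval of 9.73 to 35.0 (log2 4.21, SE 0.45). Replicate 2 of the 0 h group made this difference smaller, and without that library the log2 difference rose to 5.66.

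*MGL* was the most abundant transcript of the set in every library and one of the steadiest. It was measured at 143.1, 201.5 and 193.4 CPM after 0 h and at 630.7, 484.0 and 502.3 CPM after 4 h. The groups were far apart relative to their spread, at a 3.01-fold difference with a 95% interval of 2.38 to 3.81 (log2 1.59, SE 0.17). It was the only 1 of the 9 genes whose lowest 4 h value did not come from replicate 3. *BDG1*, its overlapping neighbour, had a mean of 24.8 CPM after 0 h and 22.4 CPM after 4 h (log2 -0.23, SE 0.29, edgeR adjusted p = 0.659).

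Among the genes with product names only, AT4G24110 (chromosome 4, 12519907 to 12520898, minus strand) combined a large difference with small spread. It stood at 11.6, 15.4 and 14.5 CPM after 0 h, and after 4 h at 115.1, 153.5 and 106.8 CPM. The lowest 4 h library was 6.94-fold above the highest 0 h library, the widest gap of the set, and the fitted difference was 8.96-fold with a 95% interval of 6.51 to 12.3 (log2 3.16, SE 0.22).

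AT4G33560 (chromosome 4, 16135157 to 16135921, plus strand) was nearly silent after 0 h, with 2, 14 and 5 reads or 1.22, 7.18 and 3.44 CPM. After 4 h it was measured at 48.7, 59.6 and 20.8 CPM. The groups did not overlap, and the fitted difference was 10.4-fold (log2 3.38, SE 0.41). As for *FTM1*, replicate 2 was the highest 0 h library, and without it the log2 difference moved to 4.24.

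AT4G27450 had the fewest reads, with 2, 5 and 3 in the 0 h libraries and 29, 17 and 4 in the 4 h libraries. These gave 1.22, 2.56 and 2.06 CPM against 13.2, 15.4 and 3.96 CPM. Replicate 3 of the 4 h group, at 4 reads, was close to the highest 0 h library, whereas the other 4 h libraries were well above it (log2 2.45, SE 0.55, 95% interval 1.32 to 3.59). *PORB*, on the opposite strand, had 274 to 534 reads in the same 4 h libraries, and what its reads contribute through the shared bases was not tested.

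The groups overlapped in the last pair. AT1G19530 (chromosome 1, 6763765 to 6765049, plus strand) stood at 31.2, 29.8 and 76.4 CPM after 0 h and at 162.0, 77.7 and 68.2 CPM after 4 h. The third 0 h library lay above the third 4 h library, and the separation came mostly from the first 4 h library (log2 1.23, SE 0.30). Without that library the log2 difference moved to 0.70, and without the third 0 h library to 1.80. AT3G27220 (chromosome 3, 10051069 to 10053761, minus strand) was measured at 8.56, 4.62 and 8.95 CPM after 0 h and at 23.2, 17.2 and 8.90 CPM after 4 h. Its replicate 3 of the 4 h group lay inside the 0 h range (log2 1.24, SE 0.38), and the log2 difference was 0.86 without 4 h replicate 1. DESeq2 called neither of these 2 genes.

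**Figure D3:**
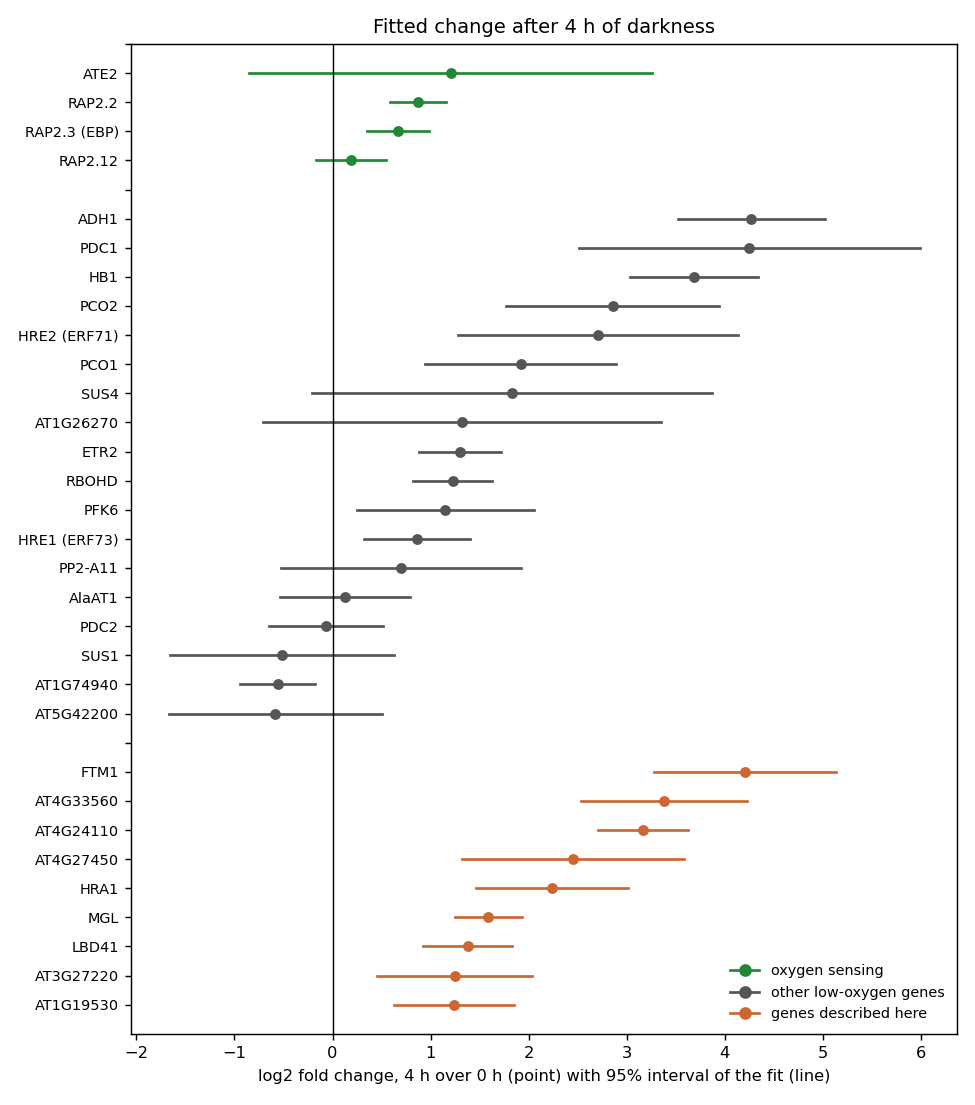
Fitted log2 fold change (4 h over 0 h) with its 95% interval for the 9 measured genes, the 18 other low-oxygen genes and the 4 oxygen sensing genes tested. The 9 genes described here lie between log2 1.23 and log2 4.21, whereas the other low-oxygen genes reach from -0.58 to 4.27.

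A second pattern concerned the spread within the 4 h group. This is a measure other than the group difference, but the same 4 h reads entered the choice of the genes. The shares that follow are therefore a description. In 8 of the 9 genes replicate 3 was the lowest 4 h library, which was the case for 34.7% of all genes tested. The log2 ratio of replicate 3 to the mean of replicates 1 and 2, on CPM with a pseudocount of 1, had a median of -1.10 over the 9 genes and of -0.03 over all genes tested. A single library against 2 others allows no test. The genes formed a gradient. *FTM1*, AT4G27450 and *HRA1* were 4.11-fold, 3.61-fold and 3.38-fold lower in replicate 3, AT4G33560 and AT3G27220 2.61-fold and 2.27-fold, and AT1G19530 1.76-fold. *LBD41*, AT4G24110 and *MGL* were only 1.34-fold, 1.26-fold and 1.11-fold lower. Where the higher group averaged 20 reads or more, 4 of 8 of the set were at least 2-fold lower in replicate 3, against 3.5% of 6223 such genes. Of these 4, *HRA1*, AT4G33560 and AT3G27220 reached that average only in the 4 h group, for which the set was chosen. Nothing is therefore read from the difference between these shares. Without that limit on reads it was 5 of 9 against 13.7%.

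The same library was low in the fermentation and haemoglobin genes. *ADH1* was 3.95-fold and *HB1*, a non-symbiotic haemoglobin gene, 3.85-fold lower in replicate 3 than in the mean of the other 4 h libraries, close to the value of *FTM1*. Of the 18 other low-oxygen genes tested, which include these 2, replicate 3 was the lowest 4 h library in 14. Their summed level was 1734, 1801 and 663.5 CPM in the 4 h libraries, a large part of it from *ADH1* and *HB1*. This library also had the lowest depth of the 6 and the lowest summed root markers, at 342.1 CPM against 619.8 and 671.8 CPM. Most of that sum was *TIP2;2*, at 428.7, 409.1 and 198.7 CPM in the 4 h libraries. Of the 4 h libraries, replicate 3 was the lowest for 6 of 8 root markers and for 6 of 10 leaf markers. Where the higher group averaged 20 reads or more, 1 of 4 root markers and 0 of 10 leaf markers were at least 2-fold lower there. In the 0 h group the root markers lay between 486.5 and 646.7 CPM, highest in replicate 2, which was also the highest 0 h library for 5 of the 9 genes (background 33.6%). Leaf markers summed to between 73640 and 81750 CPM after 0 h and to 69660, 68460 and 57000 CPM after 4 h. Between the groups, 7 of 10 leaf markers fell (edgeR, background 8.18%) and none rose, down to log2 -1.74 for the Rubisco small subunit gene *RBCS1B*. Of the root markers, 1 of 8, *TIP2;3*, rose (log2 0.63, edgeR adjusted p = 0.0335, background 8.37%), and the other 7 were not called. The median log2 fold change of the 8 root markers was -0.28. The part of root or leaf content in the values of the 9 genes was not tested. With all libraries thinned to the smallest, the median log2 ratio of replicate 3 was -0.98. Without replicate 3, the median log2 difference of the 9 genes between 4 h and 0 h was 2.58 rather than 2.24.

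**Figure D4:**
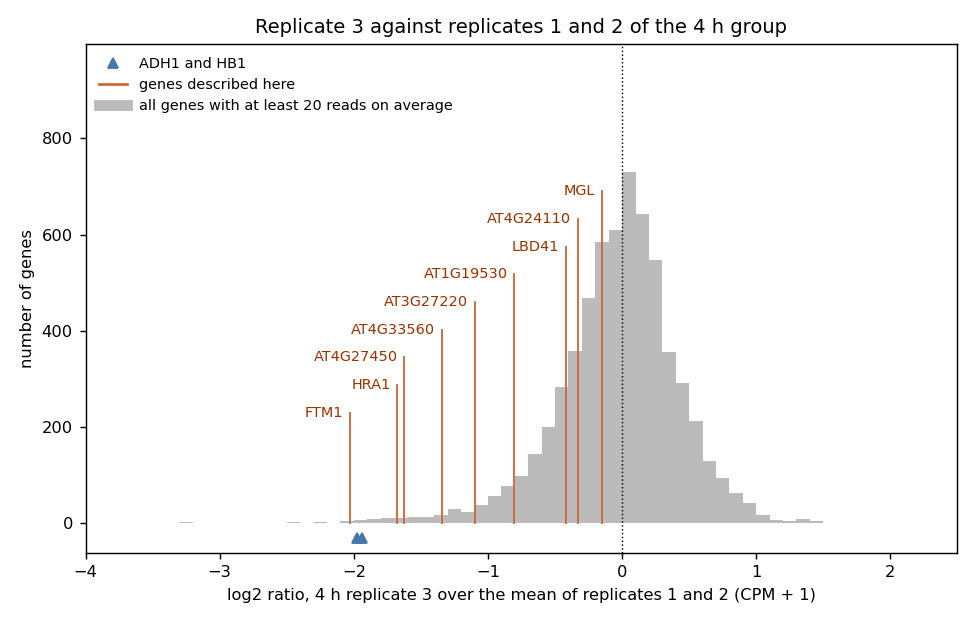
Log2 ratio of 4 h replicate 3 to the mean of 4 h replicates 1 and 2 for all genes whose higher group averaged 20 reads or more (grey histogram, number of genes) and for the 9 measured genes (lines, whose heights only separate the names); triangles mark ADH1 and HB1. The lines reach from MGL near the centre of the histogram to FTM1 in its lower tail, beside ADH1 and HB1. AT4G27450 did not average 20 reads in either group, so its line is set against genes with more reads.

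The other genes of the low-oxygen response came from a wider list that includes fermentation. Of 33 listed, 18 were tested, and 9 rose and 1 fell (edgeR, background 8.37% and 8.18%), with a median log2 fold change of 1.26. *ADH1* (AT1G77120) rose from 18.6 CPM on average to 366.9 CPM (log2 4.27, SE 0.36, edgeR adjusted p = 4.14e-09). *HB1* (AT2G16060) rose from 47.9 to 611.2 CPM (log2 3.68, SE 0.32, edgeR adjusted p = 4.74e-09). The ethylene receptor gene *ETR2* (AT3G23150) rose from 33.4 to 81.5 CPM (SE of the log2 change 0.20, edgeR adjusted p = 5.59e-05) and *RBOHD* (AT5G47910), an NADPH oxidase gene, by log2 1.22 (SE 0.20, edgeR adjusted p = 7.35e-05). The cysteine oxidase gene *PCO2* (AT5G39890) rose by log2 2.86 (SE 0.53, edgeR adjusted p = 0.000373), and by 2.36 to 3.58 with a library left out. It had 4, 2 and 8 reads after 0 h and 46, 39 and 6 after 4 h. Its 4 h replicate 3 lay only 1.08-fold above the highest 0 h library in CPM. The pyruvate decarboxylase gene *PDC1* (AT4G33070) had 3 reads in all after 0 h and 60 after 4 h, the latter all in replicates 1 and 2, a ratio of scaled counts of 23.3 with an exact 95% counting interval of 7.62 to 116. Its edgeR adjusted p of 0.000762 ranged from 1.27e-07 to 0.105 over the alternatives, and the call was lost in limma-voom. Of these 6, *ETR2* and *RBOHD* shared the small loss in replicate 3 seen in *LBD41* and *MGL*, at 1.32-fold and 1.14-fold.

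The other genes that rose were the cysteine oxidase gene *PCO1* (AT5G15120, log2 1.92, SE 0.47, edgeR adjusted p = 0.0052) and the group VII factor genes *HRE2* (AT2G47520, named *ERF71* in RefSeq) and *HRE1* (AT1G72360, *ERF73*). *PCO1* had 2, 10 and 7 reads after 0 h and 33, 23 and 7 after 4 h. *HRE2* had 5, 3 and 1 reads after 0 h and 37, 19 and 0 after 4 h (log2 2.71, SE 0.69, edgeR adjusted p = 0.00712), and its call was lost in DESeq2, in limma-voom and without 4 h replicate 1, with adjusted p between 0.000112 and 0.234 over the alternatives. *HRE1* rose by log2 0.86 (SE 0.27, edgeR adjusted p = 0.0245), a call lost in DESeq2 and without any single library other than 4 h replicate 1, with adjusted p between 0.0212 and 0.0763.

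The gene that fell, AT1G74940, went from 90.1 to 61.0 CPM (log2 -0.56, SE 0.19, edgeR adjusted p = 0.0383). Its call was lost in DESeq2, after thinning, and on leaving out any single library other than 0 h replicate 2. The adjusted p lay between 0.0178 and 0.19 over the alternatives of edgeR, DESeq2 and limma. The remaining 8 tested genes were not called, with log2 fold changes from -0.58 to 1.83. Among the enzyme genes of these 8, the sucrose synthase genes *SUS4* and *SUS1* stood at log2 1.83 (SE 0.99) and -0.51 (SE 0.56), the phosphofructokinase gene *PFK6* at 1.15 (SE 0.44), the alanine aminotransferase gene *AlaAT1* at 0.12 (SE 0.32) and *PDC2* at -0.07 (SE 0.29). *PFK6* was higher in every 4 h library than in any 0 h library (edgeR adjusted p = 0.0733). The signs of *AlaAT1* and *PDC2* turned with the setting, and *SUS1* stood at -1.66 without 4 h replicate 1.

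The cysteine oxidase and *HRE* genes above also belong to oxygen sensing but are themselves low-oxygen genes and were counted there. Of 6 further genes of oxygen sensing, 4 were tested and 2 rose. The group VII factor gene *RAP2.2* (AT3G14230) rose from 425.0 to 777.9 CPM (log2 0.87, SE 0.14, edgeR adjusted p = 6.03e-05), and *RAP2.3* (AT3G16770) from 137.4 to 217.9 CPM (log2 0.67, SE 0.15, edgeR adjusted p = 0.00307). *RAP2.12* (AT1G53910), the factor that HRA1 restrains, was measured at 155.5 ± 39.0 CPM after 0 h and 178.3 ± 3.77 CPM after 4 h (SD, n = 3), a difference of log2 0.19 (SE 0.17, edgeR adjusted p = 0.505). The arginyl transferase gene *ATE2* had 0 to 6 reads in a library (log2 1.21, SE 1.00, edgeR adjusted p = 0.463). In *RAP2.2* replicate 3 of the 4 h group, at 777.2 CPM, lay between the other 4 h libraries.

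The profile of the 9 genes over the 6 libraries was summarised as the median log2 difference from each gene's own 0 h mean. It stood at -0.31, 0.15 and 0.07 in the 0 h libraries and at 2.19, 2.19 and 1.04 in the 4 h libraries. Of 6215 other genes with enough reads, the one closest to this profile was *BETA-TIP* (AT1G17810), a tonoplast aquaporin gene, with a root mean square log2 difference of 0.22 over the 6 libraries. *BETA-TIP* was measured between 2.45 and 4.13 CPM after 0 h, not far above the floor, and between 11.9 and 17.8 CPM after 4 h. The next were *NAC102* (AT5G63790), a NAC factor gene, at 0.24, AT1G76600 at 0.26, the zinc finger gene *CZF1* (AT2G40140) at 0.30 and AT5G35735 at 0.31. None of these 5 was among the 33 other low-oxygen genes listed, and whether they respond to low oxygen was not tested.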

How the data were processed

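Total RNA was sequenced from 3' ends by bulk MARS-seq. According to the study's methods, the reads had been trimmed with cutadapt (1.8.3 in the submitters' processing notes), mapped with STAR to Araport 11 and counted with HTSeq. The authors deposited raw counts of reads per gene, without a filter on molecular identifiers, so amplification copies may be included. They also deposited a signal of counts divided by a size factor, used here only as an alternative scaling, and regularised log2 values, which were not used.

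The 10622 genes reaching 5 reads in 1 library or more were tested by edgeR 4.0.16 (quasi-likelihood test, TMM, group as the only term), with Benjamini-Hochberg adjustment over all of them at 0.05. Standard errors and 95% intervals come from that fit. Fits were tested on simulated data. Totals ranged from 1012425 to 2185464 reads. No replicate pair agreed within sampling noise (chi-square per degree of freedom 3.17 to 6.20). Alternatives were DESeq2 1.42.0, limma-voom (limma 3.58.1), other scalings and filters, a replicate block, thinning, and leaving out organelle genes or single libraries. The genes, the lists and the motifs were chosen with earlier results of these data known.

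Named were all 9 measured genes, the 6 other low-oxygen genes with the smallest p and those that fell, the tested oxygen sensing genes, and the 5 closest profiles (genes averaging 20 reads or more in the higher group, prior count of 2). *PCO1*, *HRE1*, *HRE2*, *PFK6*, *SUS1*, *SUS4*, *PDC2*, *AlaAT1*, *RBCS1B*, *TIP2;2* and *TIP2;3* were named after their values were seen, as were the overlapping genes *PORB* and *BDG1*. RefSeq TAIR10.1 gave names for 11108 of 11167 identifiers, gene models and sequences. The deposited table holds no coordinates. The region before *LBD41* is not reported here.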

Additional observations from a re-analysis of the deposited data

How the results depend on the processing

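Over 16 alternatives the number of the 9 genes called higher lay between 7 and 9, and their median log2 difference between 1.81 and 2.58, the bounds coming from leaving out 4 h replicate 1 and 4 h replicate 3. All 9 stayed positive in each alternative. AT3G27220 was not called by DESeq2, after thinning, or without 0 h replicate 1, 0 h replicate 2, 4 h replicate 1 or 4 h replicate 2, and AT1G19530 was not called by DESeq2 or without 4 h replicate 1. The other 7 genes were called throughout. These calls are a description, because the same contrast chose the genes. Over all genes tested, the main edgeR fit called 8.37% higher. DESeq2 called 750 of 7945 higher, the thinned libraries gave 823 of 9775, and the replicate block gave 988 of 10622. Of the 18 other low-oxygen genes, between 7 (DESeq2, which gave an adjusted p for 14 of them) and 10 were called. Over all genes, between 1211 (without 0 h replicate 1) and 1979 were called. DESeq2 called 750 genes higher and 543 lower, a larger share of higher genes than the 889 and 869 of edgeR. DESeq2 gave an adjusted p for 7945 genes and edgeR for 10622, so these shares rest on different sets of genes. Replicate numbers did not pair the samples (correlation of deviations -0.01, 0.04 and 0.06 for the same number). With the replicate number as a block 1979 genes, 9 of the 9 genes, 10 of the 18 and 2 of the 4 oxygen sensing genes were called, at a median log2 difference of 2.14. Sample 3 had its highest correlation with its own number, samples 1 and 2 did not. The fitted log2 change of *PDC1* lay between 3.33 (limma-voom) and 5.01 (without 0 h replicate 2). Among genes without a call, the log2 change turned sign for *PDC2* (0.093 in limma-voom, 0.043 with the block, 0.001 after thinning, and between -0.38 and 0.58 with a library left out), for *AlaAT1* (-0.16 after thinning, and between -0.49 and 0.43 with a library left out) and for *BDG1* (between -0.45 and 0.12 with a library left out). AT4G27450, *PDC1*, *HRE2*, *SUS4* and *ATE2* had no more than 5 reads in any 0 h library, which limits their precision.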
